A study of Mus musculus with 10 samples.

Results

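The nuclear-encoded genes of the mitochondrial respiratory chain were followed in BMEL cells, a bipotential line from mouse embryonic liver, after antisense treatment against miR-30a. Members were the genes whose single symbol on the array begins with Nduf, Uqcr or Atp5, or is Cyc1, Sdha to Sdhd, or Cox4 to Cox8 followed by letters or digits. This gave 91 of the 18193 genes with 1 symbol, each read from its brightest probe set, by the mean of the 10 arrays. Of these, 88 lay above the level set for testing, a mean log2 value of 4.559, below which 40% of probe sets fall, and they were tested among 12633 genes. Cox6b2 and Cox7b2, testis isoforms of cytochrome c oxidase subunits, and Ndufb4, an accessory subunit of complex I, lay below it. Each was read from 1 probe set, and whether a low value reflects the transcript or the probe set was not tested. A further 10 probe sets carry a matching symbol together with another symbol and were not used.

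Both groups were BMEL cells transfected with a locked nucleic acid (LNA) oligonucleotide by means of Oligofectamine. In 5 samples the oligonucleotide was antisense to miR-30a, and in 5 samples it was scrambled. The labels give no dose and no time, nor whether replicates were separate cultures, so a p-value here reflects the spread among these 10 samples alone, which could be technical. Array medians lay between 5.21 and 5.24 on the log2 scale. Krt8, Krt18 and Krt19, keratins of simple epithelium, averaged 13.8, 13.7 and 13.5, and the liver factors Hnf4a and Foxa2 averaged 10.7 and 10.3. All 10 markers of hepatoblasts and liver epithelium lay above the level for testing, although albumin (Alb), at 4.71, was close to it. Afp was at 6.38, Epcam at 6.33 and Sox9 at 7.27. Of 5 measured blood and macrophage markers 2 lay above that level, as did 4 of 4 mesenchymal, 1 of 3 endothelial and 3 of 5 striated muscle markers. Among these were the macrophage gene Csf1r at 6.44 and the muscle genes Acta1, Ckm and Myog at 5.05, 5.01 and 4.92. A value above the level therefore does not by itself mark a cell type. Of the 20 markers tested only the lysosomal gene Cd68 passed (log2 change 0.39, limma adjusted p = 0.0176). Cd68 missed the threshold once antisense array 3 or 4 was left out (limma adjusted p = 0.0523 and 0.0551), and its part in the results on the respiratory chain was not tested.

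The respiratory chain passes electrons from NADH (complex I) and succinate (complex II) through complex III and cytochrome c to oxygen at complex IV, and pumps protons across the inner mitochondrial membrane. ATP synthase, complex V, uses the returning protons to make ATP. Most subunits are encoded in the nucleus, and many of their promoters carry sites for the factors NRF1, GABP and YY1. Liver parenchyma is rich in mitochondria, and the number and activity of mitochondria are known to increase as hepatocytes mature. The miR-30 family is highly expressed in developing liver and has been linked to bile duct formation.

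The oligonucleotide was directed at miR-30a, whose 5p arm shares its seed with miR-30c-5p and miR-30e-5p. The labels do not say which arm of miR-30a it matches, and mature microRNAs were not measured on these arrays, so the loss of miR-30a was not analysed here. The mature sequences from RefSeq (GRCm38.p6) are shown to mark the target, with the seed, bases 2 to 8, in capitals.
miR-30a-5p: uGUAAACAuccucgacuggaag
miR-30a-3p: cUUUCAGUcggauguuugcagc
miR-30c-5p: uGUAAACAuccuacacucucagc
miR-30e-5p: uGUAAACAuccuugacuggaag
miR-30a lies on the plus strand of chromosome 1, its 5p arm at chr1:23272274-23272295 and its 3p arm at chr1:23272315-23272336.

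No respiratory chain gene passed the test between the groups. The count was 0 of 88 at an adjusted p of 0.05 (limma with Benjamini-Hochberg adjustment over all genes tested), against 1.53% of all genes (1.16% higher and 0.372% lower). It was also 0 of 88 when the replicate number was a block, against 3.05% of all genes (2% higher and 1.04% lower). Members ranged from a log2 change of -0.14 for Cox7c to 0.096 for Atp5md, and 87 of 88 lay within 0.1 of 0, compared with 80.7% of all genes. At an unadjusted p of 0.05, 2 members passed, Cox7c and Atp5md, or 2.27%, against 12.9% of all genes tested. With the replicate block 3 members passed unadjusted, or 3.41%, against 17.2% of all genes. Bright genes passed less often than all genes, and 70 of 88 members had a mean of at least 10. Of the 1718 tested genes with such a mean, 90.7% had a change within 0.1 of 0. By limma 9.20% of them passed unadjusted, or 13.5% with the block. At the adjusted threshold 10 were higher and 4 lower, and 35 passed with the block.

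A missed threshold does not show that levels were equal, so the 95% confidence interval of each change was set against a 1.2-fold difference (0.263 on the log2 scale), a bound chosen after the values had been seen. By brightest probe set, the interval lay inside that bound in both directions for 87 of 88 members, compared with 85.9% of all genes tested. Cox7a1, the muscle isoform of subunit VIIa of complex IV, was the exception, with an interval from -0.27 to 0.27. When each probe set above the level was tested separately, some dimmer ones of other members ran past the bound. For Ndufs4 the intervals were -0.52 to -0.14 and 0.086 to 0.31. Those for Ndufa12, Ndufab1 and Cox8c included 0 and reached 0.38, 0.30 and 0.27. The members were also bright, 70 of 88 having a mean of at least 10. Over the 1718 tested genes with such a mean, the interval lay inside the bound for 95.5%. The median size of the log2 change was 0.0227 for the members, 0.0331 for those bright genes and 0.0469 for all genes tested. The arrays measure RNA relative to the other genes on the array, so a change shared by all transcripts would not appear. In bulk RNA, fewer cells with a transcript and less of it per cell cannot be told apart.

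**Figure D1:**
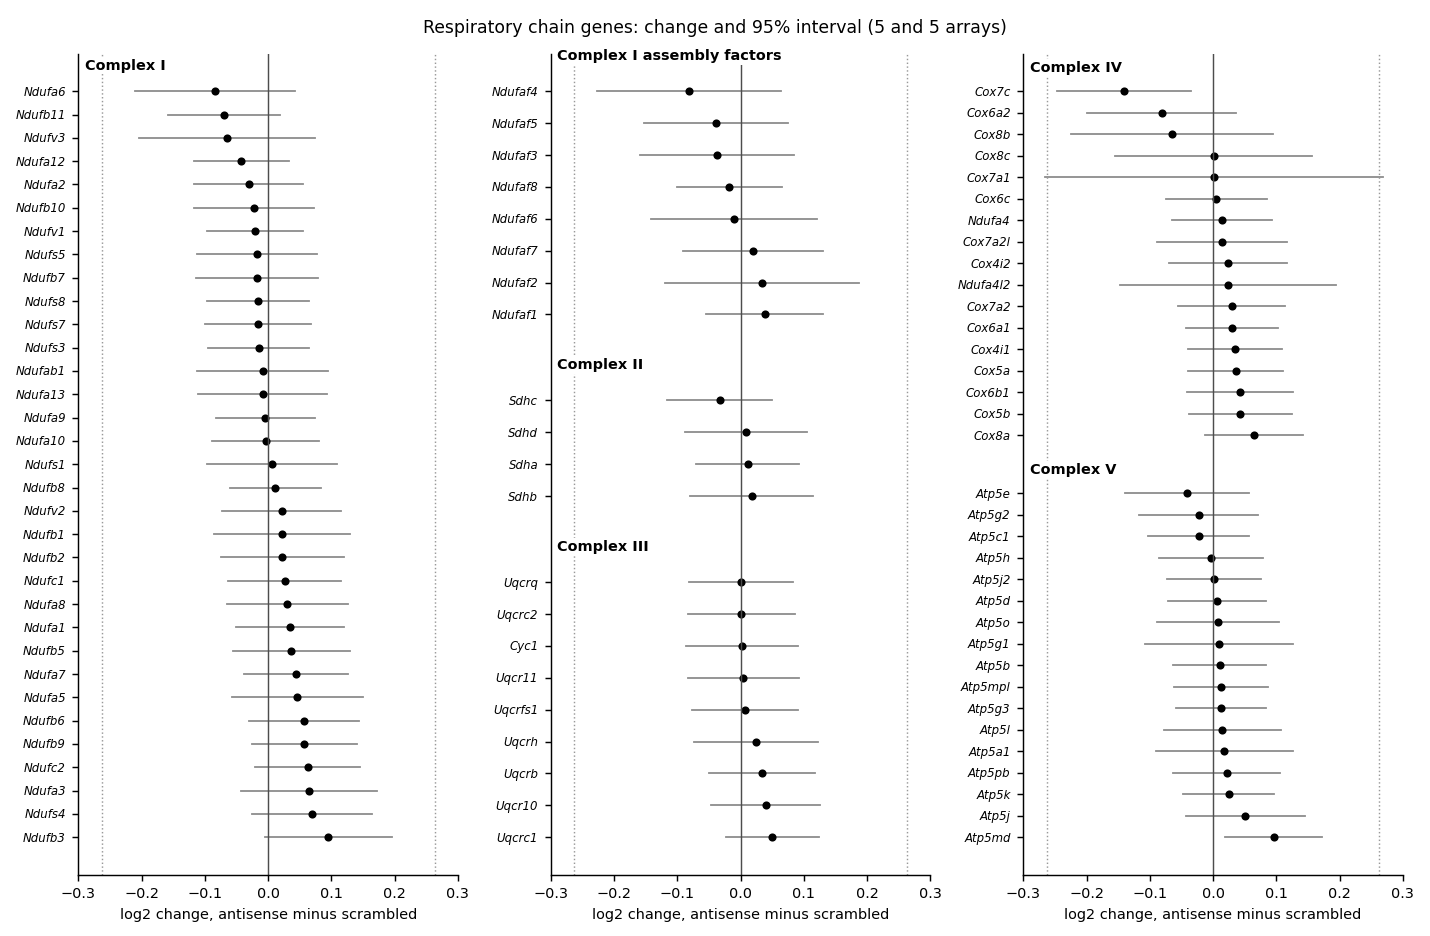
The log2 change, antisense minus scrambled, of each of the 88 respiratory chain genes tested (points) with the 95% confidence interval of the fit (lines), by complex. Dotted lines mark a 1.2-fold difference in either direction. For the brightest probe sets, which are shown, intervals of 87 genes stay inside them, and that of Cox7a1 runs past both.

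**Figure D2:**
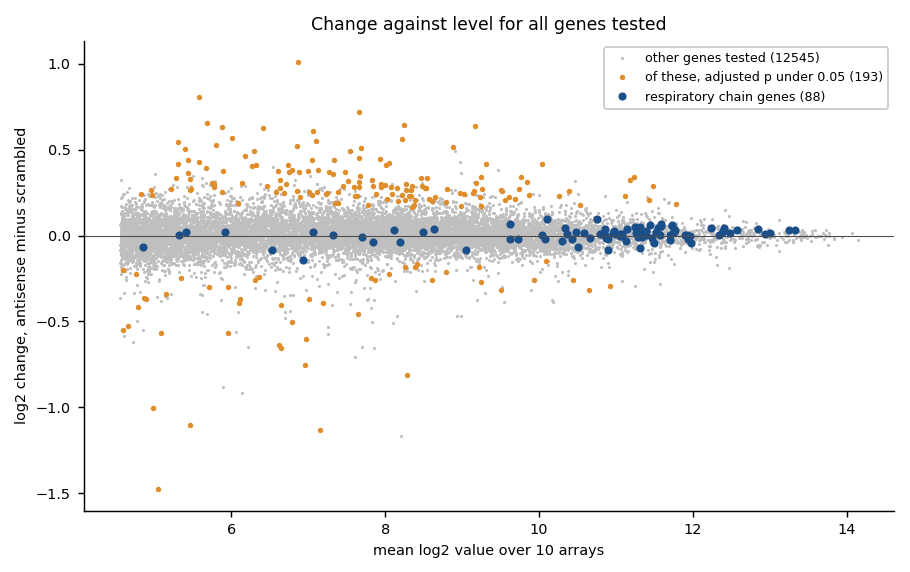
The log2 change, antisense minus scrambled, against the mean log2 value over 10 arrays for the 12633 genes tested. Respiratory chain genes (blue) lie mostly to the right, 70 of 88 at a mean of at least 10, in a band between -0.14 and 0.096, and none of the 193 genes past the threshold (orange) is among them.

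Complex I, which oxidises NADH, had 33 members tested. Their changes ran from -0.084 to 0.095, with 17 above and 16 below 0 and a median of 0.0057, compared with a median of 0.0084 over all genes. The 6 core subunits measured hold the flavin and iron-sulphur centres or the catalytic fold. By their brightest probe sets they spanned -0.021 to 0.021. These were Ndufv1 (-0.021), which binds NADH, Ndufs8 (-0.016), Ndufs7 (-0.016), Ndufs3 (-0.015), Ndufs1 (0.0057) and Ndufv2 (0.021). The 27 accessory subunits, which surround and stabilise that core, covered the full range of the complex. Other probe sets of the core subunits spread more widely. Those of Ndufs8 ran from -0.034 to 0.10, the highest being a dimmer one near 7.10. Those of Ndufv2 were at -0.027 and -0.044, of Ndufv1 at -0.018 and -0.031, and of Ndufs7 at -0.0017.

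Ndufb3, an accessory subunit of the membrane arm, had the smallest p of the complex. Its log2 values were 9.97, 10.01, 10.04, 10.14 and 10.11 in scrambled arrays 1 to 5 and 10.15, 10.04, 10.16, 10.22 and 10.18 in antisense arrays 1 to 5. The groups overlapped through antisense array 2 and scrambled arrays 3, 4 and 5, although the antisense array was higher in all 5 same-numbered pairs. Means were 10.05 ± 0.070 (SD, n = 5) and 10.15 ± 0.067 (SD, n = 5), a change of 0.095 (SE 0.046, limma adjusted p = 0.422, and 0.219 with the replicate block). Ndufb11, an X-linked accessory subunit, was lower on average, at 11.32, 11.33, 11.31, 11.41 and 11.38 in scrambled and 11.29, 11.18, 11.27, 11.32 and 11.34 in antisense arrays. Its change was -0.070 (SE 0.041, limma adjusted p = 0.527), but the other 2 probe sets of this gene were at 0.0001 and 0.0119.

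Ndufc2, a further accessory subunit, was at 11.70 ± 0.036 in scrambled arrays and 11.76 ± 0.051 in antisense arrays (SD, n = 5 each) (change 0.062, SE 0.038, limma adjusted p = 0.551). Ndufa12, the brightest probe set of the complex, was at 11.996 ± 0.021 (SD, n = 5) and 11.95 ± 0.039 (SD, n = 5), a change of -0.043 (limma adjusted p = 0.687). Ndufb1, the dimmest of those tested, had a change of 0.021 around a mean of 7.06. Ndufb4, below the level for testing, was at 4.37 ± 0.17 (SD, n = 5) and 4.19 ± 0.16 (SD, n = 5).

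Ndufs4, an accessory subunit whose loss causes a Leigh-like disease in mice, gave different values from different probe sets. The brightest was at 9.58 ± 0.068 in scrambled arrays and 9.65 ± 0.055 in antisense arrays (SD, n = 5 each), a change of 0.069 (limma adjusted p = 0.571). A second, near 6.10, had a change of 0.20, and another, near 5.67, of -0.33. When each of the 22744 probe sets above the level was tested separately, a setting chosen after the data had been seen, their limma adjusted p-values were 0.116 and 0.130, or 0.0637 for both with the replicate block. They were the lowest among 168 probe sets of respiratory chain genes, 0 of which passed at 0.05, against 0.686% of all probe sets (7 passed unadjusted, against 11.2%). The sign for Ndufs4 therefore depends on the probe set. Across members, 80 probe sets other than the brightest lay above the level, and 73 of them were within 0.1 of the brightest probe set's change. The median size of a member's change was 0.0227, so closeness within 0.1 says little about sign. The sign also differed between probe sets for Ndufs8, Ndufv2, Ndufa5, Ndufb6, Cox5a, Cox6c, Uqcrc2, Uqcr10 and Sdha, among others.

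The 8 assembly factors Ndufaf1 to Ndufaf8 help to build complex I and are not part of the finished enzyme. Their median change was -0.014, with 5 below and 3 above 0, and none passed. Ndufaf4 had the smallest p: it was at 8.91, 9.19, 9.08, 9.18 and 9.07 in scrambled and 8.91, 9.16, 8.95, 9.11 and 8.89 in antisense arrays. Groups overlapped almost fully and array 1 was among the lowest in both, while the antisense array was lower in all 5 pairs. Its change was -0.082 (SE 0.067, limma adjusted p = 0.688, and 0.327 with the replicate block). A second Ndufaf4 probe set was also at -0.082. Ndufaf1, a factor of the membrane arm, had a change of 0.038, Ndufaf5, a matrix hydroxylase that modifies a core subunit, of -0.039, Ndufaf8 of -0.018 and Ndufaf6 of -0.011.

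Complex II, succinate dehydrogenase, links the respiratory chain to the tricarboxylic acid cycle and had all 4 of its subunits measured. Sdha, the flavoprotein that oxidises succinate, was at 10.82 ± 0.056 in scrambled arrays and 10.83 ± 0.015 in antisense arrays (SD, n = 5 each). Sdhb, the iron-sulphur subunit and the brightest of the complex, was at 10.95 ± 0.082 (SD, n = 5) and 10.97 ± 0.039 (SD, n = 5). The changes of Sdha (0.011) and Sdhb (0.017) were thus smaller than the SD of either group. The membrane anchor Sdhc, with the smallest p, had a change of -0.033 (SE 0.039, limma adjusted p = 0.80), and the anchor Sdhd one of 0.0089.

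Complex III carries electrons from ubiquinol to cytochrome c. By their brightest probe sets, its 9 measured subunits all had small changes above 0, from 0.0010 for Uqcrq to 0.050 for Uqcrc1. Other probe sets above the level were below 0 for Uqcrc2 (-0.060), Uqcr10 (-0.0064 and -0.0089), Uqcrh (-0.0029) and Uqcrb (-0.0002). Those of Uqcrq were above 0 (0.0065 and 0.026). Over all genes tested, 55.1% had a change above 0. Uqcrc1, a core protein, was at 11.26, 11.27, 11.29, 11.33 and 11.24 in scrambled and 11.36, 11.34, 11.34, 11.29 and 11.32 in antisense arrays. Antisense arrays 4 and 5 lay below scrambled array 4, and the groups overlapped through these. Its change was 0.050 (SE 0.034, limma adjusted p = 0.605). Uqcr10, a small subunit, had a change of 0.040 (adjusted p = 0.761) and Uqcrb, the brightest member of all at 13.3, of 0.034 (adjusted p = 0.793), both by limma.

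The catalytic subunits of complex III had changes near 0. Cyc1, cytochrome c1, had a change of 0.0025 (95% interval -0.086 to 0.091) and Uqcrfs1, the Rieske iron-sulphur protein, of 0.0063 (-0.077 to 0.090). Uqcrc2, the second core protein, was at 10.85 ± 0.052 in scrambled arrays and 10.85 ± 0.043 in antisense arrays (SD, n = 5 each). The median of the complex was 0.0063 and became -0.0066 without scrambled replicate 1, the array with the lowest mean of these genes.

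Complex IV, cytochrome c oxidase, reduces oxygen and is the complex with the most tissue-specific isoforms. Here it had 17 members tested, with Ndufa4, whose product is now counted to this complex, its paralogue Ndufa4l2 and the supercomplex factor Cox7a2l. By brightest probe set, 14 of these were above and 3 below 0, and the median change was 0.023. Averaged over the 17 genes, the group means differed by only 0.0043, with SDs of 0.031 and 0.034 (n = 5 each). On that average the antisense array was higher in 2 of 5 pairs. Other probe sets above the level were below 0 for Cox5a and Cox6c, and above 0 for Cox6a1, Cox6b1, Cox7a2 and Cox8a. Those of Cox5b and Cox7a2l took both signs. Of the widely expressed subunits 9 of 10 were above 0, and of the restricted isoforms 4 of 6, against 55.1% of all genes. The difference between these counts was not tested.

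Cox7c, a small subunit, had the largest change of the 88 members tested and the smallest p. It was at 6.97, 7.03, 7.05, 7.04 and 6.89 in scrambled and 6.75, 6.92, 6.87, 6.80 and 6.94 in antisense arrays. Scrambled array 5 lay below antisense arrays 2 and 5, and the other 4 scrambled arrays lay above every antisense array. Means were 6.996 ± 0.069 (SD, n = 5) and 6.86 ± 0.082 (SD, n = 5), a change of -0.14 (SE 0.049, 95% interval -0.25 to -0.035, limma adjusted p = 0.224). The second probe set of Cox7c, near 4.98, had a change of -0.11. The first was brighter than 69.9% of all probe sets, against 98.3% or more for the probe sets of the other 9 widely expressed subunits of this complex.

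Cox8a, the ubiquitous form of subunit VIII, was at 11.52, 11.57, 11.51, 11.57 and 11.58 in scrambled and 11.56, 11.62, 11.60, 11.63 and 11.66 in antisense arrays. Antisense array 1 lay among the scrambled arrays and the other 4 above them, and the antisense array was higher in all 5 pairs. The change was 0.065 (SE 0.036, limma adjusted p = 0.495, and 0.344 with the replicate block). Cox6b1, which faces the intermembrane space, was also higher in all 5 pairs (change 0.042, limma adjusted p = 0.732). Both are among the 10 tested members for which this held.

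The isoform pairs were compared within each gene only, since the signals of different probe sets are not amounts of RNA on a shared scale. Cox4i1, the general form of subunit IV, was at 12.54, 12.56, 12.53, 12.56 and 12.55 in scrambled and 12.54, 12.55, 12.57, 12.63 and 12.62 in antisense arrays, a change of 0.034 (SE 0.034). Its probe set was brighter than 99.4% of all probe sets. Cox4i2, the hypoxia-inducible lung form, was at 5.41 ± 0.035 (SD, n = 5) and 5.43 ± 0.076 (SD, n = 5), with 52.7% of probe sets below it. Cox6a1, the liver form of subunit VIa, had a change of 0.030 at a mean of 13.2, and Cox6a2, the heart and skeletal muscle form, one of -0.081 (limma adjusted p = 0.595) at 6.52, or -0.040 without scrambled array 5. Cox7a2 had a change of 0.029 at 12.4. The muscle form Cox7a1 was at 5.50, 5.27, 5.27, 5.15 and 5.38 in scrambled and 5.39, 4.78, 5.38, 5.45 and 5.58 in antisense arrays, and antisense array 2 alone stood apart. Its change of 0.0014 became 0.14 without that array (limma adjusted p = 0.469). Cox8b, of muscle and brown fat, had a change of -0.065 at a mean of 4.86, close to the level for testing, and the testis form Cox8c one of 0.0009 at 7.32.

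Ndufa4 had a change of 0.014 (95% interval -0.066 to 0.093) at 12.4, and Ndufa4l2, a target of the hypoxia-inducible factor HIF1, one of 0.024 (-0.15 to 0.19) at 5.92. Cox7a2l, which joins complexes III and IV into supercomplexes, had a change of 0.014 and Cox6c of 0.0053. Below the level for testing, Cox6b2 was at 4.44 ± 0.11 in scrambled arrays and 4.48 ± 0.16 in antisense arrays (SD, n = 5 each), and Cox7b2 at 3.10 ± 0.079 (SD, n = 5) and 3.05 ± 0.12 (SD, n = 5).

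**Figure D3:**
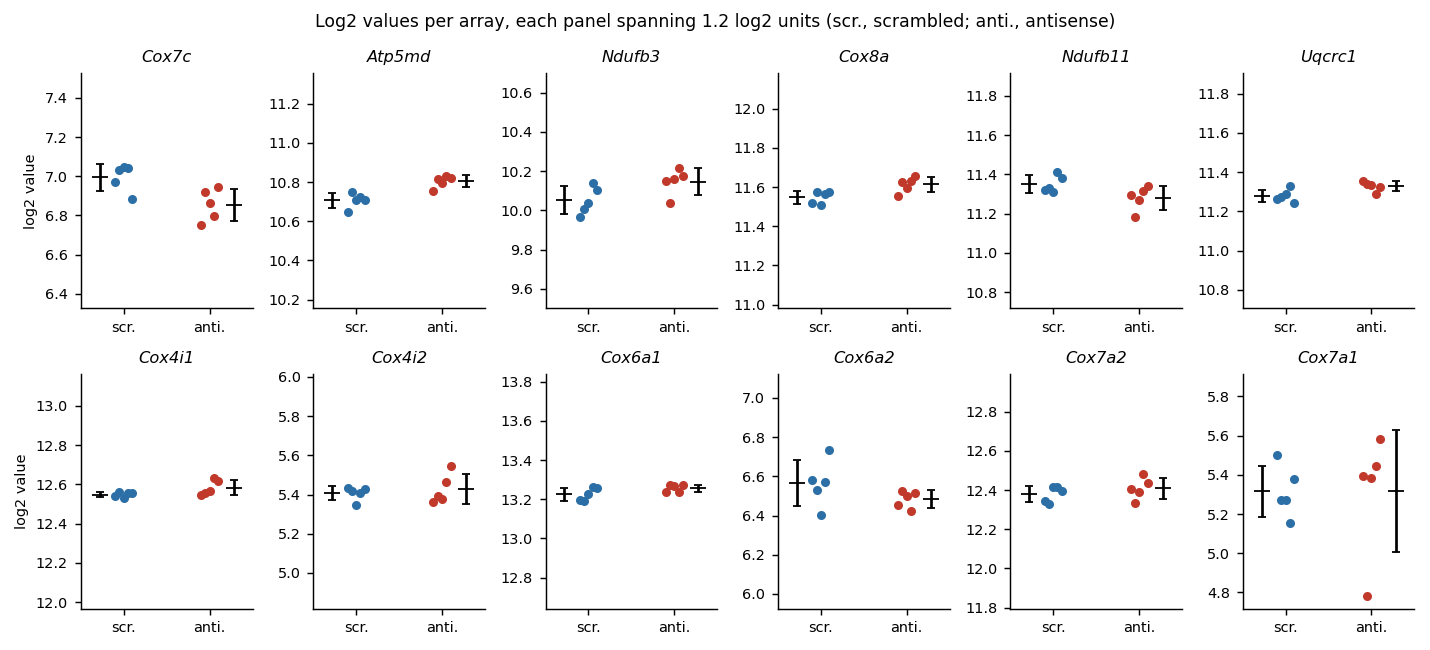
Log2 values on each array for 12 genes of the respiratory chain, with the mean and SD of 5 arrays beside them, in scrambled (blue) and antisense (red) arrays. Every panel spans 1.2 log2 units around its own mean. Of the genes shown only Atp5md has groups that do not overlap, and Cox7a1 has the widest spread.

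Complex V, ATP synthase, had 17 members tested, with a median change of 0.010. By brightest probe set 13 were above and 4 below 0, while 55.1% of all genes were above 0. The sign differed between probe sets above the level for Atp5j2 (0.0013, 0.0084 and -0.096) and Atp5h (-0.0038 and 0.0004). Atp5md, a small membrane subunit that helps ATP synthase dimers to form, was at 10.65, 10.75, 10.71, 10.72 and 10.71 in scrambled and 10.75, 10.81, 10.80, 10.83 and 10.82 in antisense arrays. It was the only member of 88 whose groups did not overlap, against 3.92% of all genes, and the gap at antisense array 1 and scrambled array 2 was small. Means were 10.71 ± 0.038 (SD, n = 5) and 10.80 ± 0.031 (SD, n = 5). The change was 0.096 (SE 0.036, 95% interval 0.019 to 0.17), with a limma adjusted p of 0.259, and of 0.162 with the replicate block.

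By brightest probe set, the catalytic head of ATP synthase had changes near 0. Its 5 genes, Atp5a1, Atp5b, Atp5c1, Atp5d and Atp5e, spanned -0.041 to 0.018. Other probe sets above the level spread more widely, at -0.090 for Atp5c1, 0.0011 and 0.054 for Atp5a1, and 0.0074 for Atp5d. Atp5b, the catalytic beta subunit, had a change of 0.010 (95% interval -0.064 to 0.084) and Atp5e, the epsilon subunit, of -0.041 (SE 0.045, limma adjusted p = 0.790), or -0.0066 without antisense array 2. The c ring, the rotor through which protons pass, is encoded by Atp5g1, Atp5g2 and Atp5g3, which differ in their import sequence and yield the same mature protein. Atp5g3 was at 12.99 ± 0.029 in scrambled arrays and 13.00 ± 0.0060 in antisense arrays (SD, n = 5 each). Atp5g1 had a change of 0.0094 and Atp5g2 of -0.023. Atp5j, coupling factor 6 of the peripheral stalk, had a change of 0.051 (limma adjusted p = 0.704).

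The mean of all 88 members on each array showed how the spread between arrays compared with that between groups. It was 10.58, 10.63, 10.62, 10.66 and 10.64 in scrambled and 10.62, 10.60, 10.62, 10.69 and 10.66 in antisense arrays. Scrambled array 1 was lowest and antisense array 4 highest, and the groups overlapped. The group means differed by 0.0068, with SDs of 0.030 and 0.036 (n = 5 each), and the antisense array was higher in 3 of 5 pairs. Complex I had the same array order at its ends, from 10.79 in scrambled array 1 to 10.92 in antisense array 4. Complex V ran from 11.66 to 11.75 and complex III from 11.45 to 11.57 between the same arrays. In complex II scrambled array 1 was also lowest, at 10.65. Complex IV ran from 9.63 in scrambled array 3 to 9.71 in scrambled array 5.

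**Figure D4:**
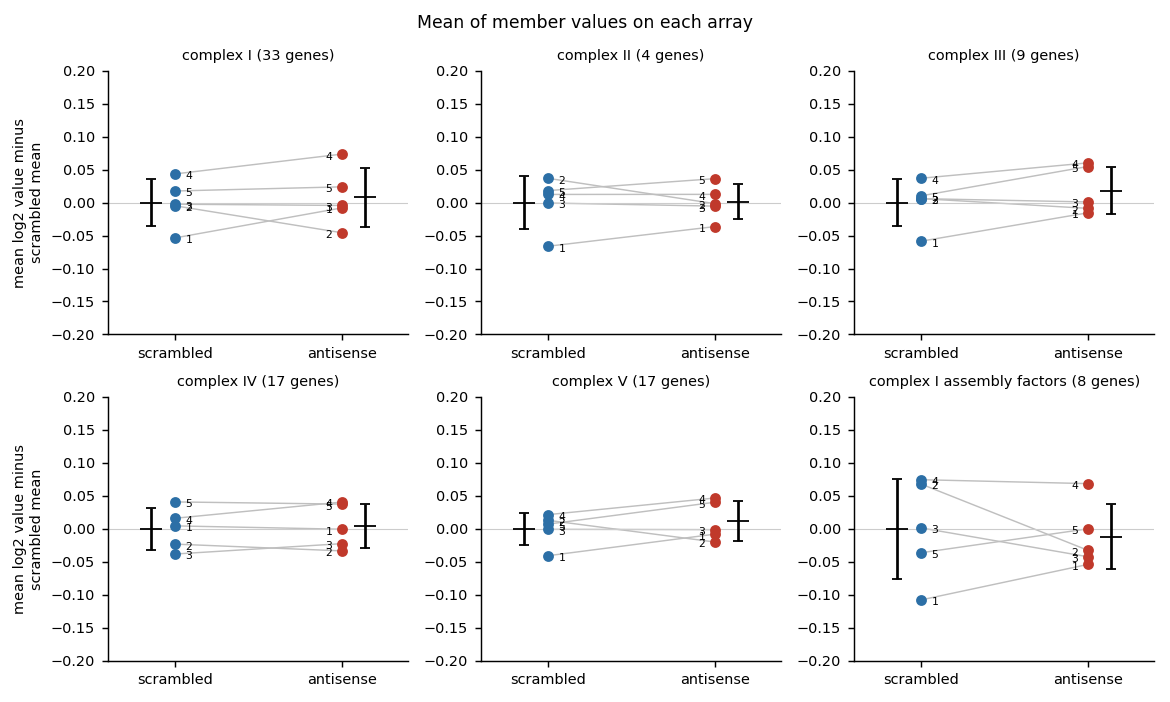
The mean log2 value of the members of each complex on each array, less the scrambled mean, with the mean and SD of 5 arrays beside the points. Grey lines join arrays of the same replicate number. The groups overlap in every panel, and scrambled array 1 is the lowest scrambled array for every complex except complex IV.

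Other mitochondrial genes were read from the same fit. Among 178 genes in 6 lists, 0 passed the limma test at an adjusted p of 0.05 (5 passed unadjusted, or 2.81%, against 12.9% of all genes tested), and their median change was 0.0070. With the replicate block 1 of the 178 genes passed, against 3.05% of all genes. This was Tfb2m, a transcription factor of the mitochondrial genome, at 8.60 ± 0.093 in scrambled arrays and 8.80 ± 0.11 in antisense arrays (SD, n = 5 each), a change of 0.20 (SE 0.059, limma adjusted p = 0.129, and 0.0276 with the block). Of the other 17 regulators of mitochondrial biogenesis, Myc had the smallest p (change 0.14, limma adjusted p = 0.506). Ppargc1a and Ppargc1b, coactivators of respiratory genes, lay below the level for testing.

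The 76 mitochondrial ribosomal protein genes had a median change of 0.0094, with Mrps30 at -0.082 and Mrps2 at 0.095. Tricarboxylic acid cycle enzymes (17 genes) had a median of -0.013, with Dlat, of the pyruvate dehydrogenase complex, at 0.091 and fumarase, Fh1, at -0.086. The 45 assembly factors with other names had a median of 0.0078, with the complex I factor Timmdc1 at 0.12 and Coa5 at 0.11, and the 21 electron carriers and exchangers one of -0.0079, with Coq3, of ubiquinone synthesis, at 0.088 and the nucleotide translocase Slc25a5 at -0.059. Of the subunits encoded by mitochondrial DNA, ND5 was measured, at 12.89 ± 0.056 in scrambled arrays and 12.90 ± 0.079 in antisense arrays (SD, n = 5 each).

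Promoter letters are a feature the naming rule did not use. RefSeq windows (GRCm38.p6) from 250 bases before to 50 bases after the start were at hand for 74 of the 91 members. GCGCANGCG, a form of the NRF1 motif, read like the others on both strands, stood in 20 of 74 members (27.0%), in 7.03% of 27025 genes with a window and in 14.3% of the tested genes with one. CCGGAAG, the core of the ETS motif that GABP binds, stood in 25.7% of members, 9.93% of all genes and 19.0% of tested genes. AAGATGGCG, of the YY1 motif, stood in 9.46%, 1.64% and 3.41%. The changes of the 19 tested members with the NRF1 letters ran from -0.084 to 0.050 (median 0.0081). Those of the 52 without ran from -0.14 to 0.096 (median 0.016). With the ETS letters, which Atp5md holds, 19 members ran from -0.041 to 0.096 (median 0.017), and without them 52 ran from -0.14 to 0.095 (median 0.011). The 7 members with the YY1 letters ran from -0.018 to 0.069 (median 0.0013), and the 64 without from -0.14 to 0.096 (median 0.012). A match is only a run of letters and no measure of binding.

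The 250 bases before the start are shown for 3 of the 6 members that hold both NRF1 and ETS letters, from complexes IV, II and V, with these letters in capitals.
Cox6a1, minus strand, chr5:115348959-115349208: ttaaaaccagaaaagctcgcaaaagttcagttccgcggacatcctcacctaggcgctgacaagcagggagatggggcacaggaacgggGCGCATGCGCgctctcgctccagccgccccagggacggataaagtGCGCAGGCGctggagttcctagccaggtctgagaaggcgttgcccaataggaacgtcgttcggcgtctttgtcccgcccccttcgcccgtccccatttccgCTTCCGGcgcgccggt
Sdhd, minus strand, chr9:50603850-50604099: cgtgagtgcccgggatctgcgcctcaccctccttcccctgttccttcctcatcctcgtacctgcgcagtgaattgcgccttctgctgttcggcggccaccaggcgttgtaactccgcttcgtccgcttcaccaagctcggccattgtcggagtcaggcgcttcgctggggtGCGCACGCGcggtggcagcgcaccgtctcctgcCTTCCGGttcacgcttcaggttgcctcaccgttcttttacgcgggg
Atp5h, minus strand, chr11:115419920-115420169: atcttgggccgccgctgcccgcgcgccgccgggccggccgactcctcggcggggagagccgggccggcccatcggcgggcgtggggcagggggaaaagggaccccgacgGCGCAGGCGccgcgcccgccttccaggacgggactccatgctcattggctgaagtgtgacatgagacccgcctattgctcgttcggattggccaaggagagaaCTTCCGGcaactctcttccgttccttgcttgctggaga
In Cox6a1 the NRF1 letters begin 162, 161 and 117 bases before the start, the first pair overlapping on opposite strands. In Sdhd they begin 79 and in Atp5h 141 bases before it, and no NRF1 match overlaps an ETS match. The ETS letters appear as their reverse complement and begin 16, 46 and 38 bases before the start. The log2 changes of these genes were 0.030, 0.0089 and -0.0038.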

How the data were processed

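Total RNA (100 ng a sample) from 10 samples was amplified and biotin-labelled, per the labels' protocols, and measured on single-colour Affymetrix mouse arrays. Each array has 1 deposited value for a probe set, in log2 units, a scale read from the values, which reach 14.2. How the authors summarised and normalized them is not given in the sources used here. The values were used as they stand. The platform annotation gave 1 symbol for 34945 of 45101 probe sets, several for 932 and none for 9160, and 64 are array controls. Groups and replicate numbers came from the sample titles. Testing used lmFit and eBayes of limma 3.58.1 (R 4.3.3; two-sided, 95% intervals), fitted over all 12633 genes, with Benjamini-Hochberg adjustment and a threshold of 0.05. The number of arrays limits the precision.

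Scrambled and antisense arrays of 1 number deviated together, with correlations of 0.172, 0.377, 0.112, 0.152 and 0.335 for numbers 1 to 5. Arrays of different numbers gave a mean of -0.0594 and reached 0.231, above 3 of those 5. Deviations were taken from the group means, so positive values for same numbers by themselves pull the mean for different numbers below 0. The labels do not say that the numbers pair the samples, and these correlations do not settle it. The main comparison has no block, and the fit with a replicate block is given where it changes a call. Members, lists and tests were chosen with earlier results of these data known. Named were, in each complex, the 3 members with the smallest p, the brightest and the dimmest, and the isoform pairs of complexes IV and V, and in each other list the 2 with the smallest p; core subunits, Ndufs4, Sdhd, Cyc1, Uqcrfs1, Uqcrq, Ndufb4, Atp5b and Atp5h were added after their values were seen. Alternatives were the block, quantile normalization, median centring, no filter or a filter at the 60th percentile, the mean of probe sets, another variance model, and each array left out. The test was tried on simulated data first. Figures were drawn with matplotlib 3.10.9.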

Additional observations from a re-analysis of the deposited data

Results flagged for a closer look

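For 38 named genes and 7 array means, both groups of 5 were checked for an array far from the other 4 (Dixon's test at 95%). Chance alone singles out about 1 in 20 groups, and here 4 of the 90 groups held such an array. Cox7a1 was at 4.78 in antisense replicate 2 and between 5.38 and 5.58 in the others. Cox8b was at 5.02 in scrambled replicate 3, against 4.84 to 4.87. Cox4i2 was at 5.34 in scrambled replicate 3, against 5.41 to 5.43. The c ring gene Atp5g2 was at 11.66 in scrambled replicate 1, against 11.72 to 11.73. None of these genes passed the limma test in any fit tried.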

How the results depend on the processing

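The count of respiratory chain genes past the threshold was 0 in all 17 alternative limma fits, and 0 when each probe set was tested. The lowest adjusted p of any member ranged from 0.114 with quantile normalization to 0.390 without antisense replicate 4. Unadjusted, 2 to 4 members passed. The count over all genes was 193 and became 385 with the replicate block and 303 with the trended and robust variance model, and it ranged from 92 to 201 with 1 array left out. The block brought 1 gene of the other mitochondrial lists past the threshold and changed no call of a respiratory chain gene or cell type marker. The median change stayed above 0 in all fits for complex IV and took both signs for the other complexes and the assembly factors with single arrays left out. The block and the trended and robust variance model cannot move a median change, so those fits say nothing about its sign. For all members together the median of 0.011 ranged from -0.0020 without scrambled replicate 1 to 0.020 without scrambled replicate 4, so its sign depends on single arrays. Single arrays also moved small changes that had not passed, such as those of Cox7a1, Atp5e and Cox6a2. By brightest probe set, Cox7a1, at a mean of 5.32, had the widest interval of the members tested.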
